A study of Homo sapiens with 6 samples.

Results

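Genomic sites at which the cohesin subunit SMC1 was listed in senescent human fibroblasts, and in neither proliferating nor ICM-treated ones, were described by position, width, rank and overlap with CTCF. Whole SMC1 peaks of 3 lists on chromosomes 1 to 22 and X were joined into loci where they overlapped by 1 bp or more, which gave 22580 SMC1 loci. The sites were chosen by list membership: a locus with a peak from the senescent list and from neither other list was kept. There were 2236 such loci, or 9.90% of all SMC1 loci and part of the 12811 loci that held a senescent peak. For comparison, 8247 loci had peaks in all 3 lists, 2004 in the control list alone and 4136 in the ICM list alone.

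The data were CUT&Tag peak lists from IMR90, a line of primary human lung fibroblasts, and all 6 titles carried the isolate label I79. In CUT&Tag, an antibody tethers a transposase to its target on chromatin, and the DNA cut there is sequenced. The SMC1 libraries came from control cells (p number 16 in the title), cells given the HMGB-binding small molecule inflachromene (ICM; p number 16) and senescent cells of high passage (p number 34). The matching CTCF libraries had p numbers 21, 16 and 34, and the ICM library for CTCF was labelled with 6 days of treatment, while that for SMC1 gave no number of days. The lists hold no expression values against which the senescent label could be checked. With 1 library per group, senescence cannot be told apart from passage or from the library itself, no comparison between conditions was tested, and all intervals given are exact 95% intervals for counting over loci. The lists hold no signal outside their own peaks, so a locus missing from a list had signal below the authors' threshold for a peak there and may still have been bound. The SMC1 lists held 14883 peaks (control), 17809 (ICM) and 12927 (senescent), and their read depth is unknown here.

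Cohesin is a ring-shaped complex that extrudes chromatin loops and holds sister chromatids together, and SMC1 is part of the ring. It is loaded at active genes and enhancers, moves along chromatin, and is halted by CTCF, an insulator protein that binds a directional DNA motif. Transcription can also push cohesin along genes, towards their 3′ ends and into the spaces between genes that converge. Replicatively senescent fibroblasts have left the cell cycle for good and secrete cytokines, proteases and growth-factor-binding proteins.

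The sequences shown here are the promoter windows in which the highest SMC1 signal of a senescent-only locus fell. A locus was placed by its summit, the midpoint of the region where the signal was highest. Promoter windows of 1 chromosome were not used here. Of the 2143 loci on the other chromosomes, 115 had a summit inside a RefSeq promoter window of a protein-coding gene, which runs from 250 bases before the start to 50 bases after it. Shown are, among the windows used, the 4 with the highest total signal, followed by 2 of genes in the lists described further on. They are RefSeq sequences of build GRCh38.p14, read 5′ to 3′ on the strand of the gene, and capitals mark the bases inside the region of highest signal.
ZMAT5, chr22:29766958-29767257, minus strand: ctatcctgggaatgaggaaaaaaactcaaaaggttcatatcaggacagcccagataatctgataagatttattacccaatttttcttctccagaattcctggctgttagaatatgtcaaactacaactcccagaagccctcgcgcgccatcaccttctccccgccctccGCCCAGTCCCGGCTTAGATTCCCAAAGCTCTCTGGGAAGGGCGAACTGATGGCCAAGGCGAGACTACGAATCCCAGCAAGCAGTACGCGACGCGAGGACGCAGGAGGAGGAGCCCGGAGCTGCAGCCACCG
ZNF428, chr19:43619580-43619879, minus strand: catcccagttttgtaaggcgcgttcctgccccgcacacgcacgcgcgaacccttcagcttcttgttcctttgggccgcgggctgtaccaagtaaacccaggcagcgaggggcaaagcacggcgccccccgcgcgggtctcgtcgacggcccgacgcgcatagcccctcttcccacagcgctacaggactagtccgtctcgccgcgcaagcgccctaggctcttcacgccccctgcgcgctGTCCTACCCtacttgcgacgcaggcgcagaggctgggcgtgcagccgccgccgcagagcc
PLXDC2, chr10:19816182-19816481, plus strand: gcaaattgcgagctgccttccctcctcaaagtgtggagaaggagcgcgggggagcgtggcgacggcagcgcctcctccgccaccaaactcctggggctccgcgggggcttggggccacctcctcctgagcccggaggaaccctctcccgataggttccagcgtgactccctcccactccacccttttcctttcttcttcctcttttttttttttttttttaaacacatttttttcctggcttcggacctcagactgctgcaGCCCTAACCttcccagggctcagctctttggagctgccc
ZNF544, chr19:58228664-58228963, plus strand: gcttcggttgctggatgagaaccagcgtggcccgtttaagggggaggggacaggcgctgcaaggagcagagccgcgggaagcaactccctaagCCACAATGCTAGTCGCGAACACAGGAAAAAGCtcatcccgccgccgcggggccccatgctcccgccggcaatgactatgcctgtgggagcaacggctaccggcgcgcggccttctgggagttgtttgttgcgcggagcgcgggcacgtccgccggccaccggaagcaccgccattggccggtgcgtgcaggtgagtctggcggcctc
PALLD, chr4:168631328-168631627, plus strand: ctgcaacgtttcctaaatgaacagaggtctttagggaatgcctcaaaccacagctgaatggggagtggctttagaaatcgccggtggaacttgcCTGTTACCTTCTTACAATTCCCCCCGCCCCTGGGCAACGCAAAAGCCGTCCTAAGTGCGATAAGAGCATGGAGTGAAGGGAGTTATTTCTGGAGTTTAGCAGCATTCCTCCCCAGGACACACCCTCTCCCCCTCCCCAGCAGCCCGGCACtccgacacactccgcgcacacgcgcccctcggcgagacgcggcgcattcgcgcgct
CDKN2A, chr9:21974808-21975107, minus strand: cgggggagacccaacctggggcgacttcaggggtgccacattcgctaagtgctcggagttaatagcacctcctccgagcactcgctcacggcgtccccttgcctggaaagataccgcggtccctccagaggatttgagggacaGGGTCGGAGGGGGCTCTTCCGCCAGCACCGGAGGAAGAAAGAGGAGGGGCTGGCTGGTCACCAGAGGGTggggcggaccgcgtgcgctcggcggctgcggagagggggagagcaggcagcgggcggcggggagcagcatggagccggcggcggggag

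ZMAT5, a zinc-finger gene, had the widest stretch of highest signal among the first 4, with 131 of its 300 bases in capitals and a summit 4 bp past the start. The ZMAT5 locus had a total signal (coverage summed over the peak) of 5703, which put it at the 76.0th percentile of the senescent SMC1 list. ZNF428 and PLXDC2 each reached their highest signal over 9 bases, and the total signals of the loci were 5674 and 5554. ZNF544, another zinc-finger gene, had its summit 141 bp before the start and a total signal of 5500. CDKN2A encodes the INK4A and ARF inhibitors of the cell cycle, and its senescent-only locus had its summit 73 bp before the start used in this window. The CDKN2A locus was weak within its list, with a total signal of 3013 (11.6th percentile) and a highest signal of 7, and the nearest control SMC1 peak was 8505 bp away. PALLD, which encodes the actin-associated protein palladin, was also low, with a total signal of 3120 (16.9th percentile) and a summit 81 bp before the start. Both of these windows lie inside the annotated gene, at an internal start.

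A GC box (GGGCGG on either strand) was present in 102 of the 132 windows that held such a summit (77.3%), in 76.8% of windows at loci of all 3 lists and in 56.3% of all 22012 coding windows used, which exclude chromosome 8. Median GC content was 65.5% in the 132 windows and 62.3% in all windows. A TATA box (TATAAA) was found in 7 of the 132 (5.30%), an AP-1 motif (TGANTCA) in 5 (3.79%) and an E-box (CACGTG) in 7 (5.30%), each searched on both strands. The shares were 9.49%, 6.16% and 8.32% of all windows, and 3.59%, 4.52% and 9.73% of windows at loci of all 3 lists. The CTCF core motif was in none of the 132, in 0.418% of all windows and in 0.934% of windows at loci of all 3 lists. A count of none allows a share of up to 2.27% (3 counts of 132), which is above both other shares. It thus cannot tell whether the motif was rarer in the 132 windows. Of loci of all 3 lists at promoters, 37.3% overlapped a senescent CTCF peak, so a window without the motif does not show a locus without CTCF. Of the windows printed, ZMAT5 and CDKN2A each held 2 GC boxes and PALLD held 1. No motif search was made at the other loci.

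The strongest senescent-only loci lay at a handful of separate genes. The highest total signal, 12162 (97.7th percentile of the senescent list), belonged to a locus between genes on chromosome 10 (chr10:123994032-123996200). Its summit was 2725 bp from the pseudogene YBX2P1, 12272 bp from the 3′ end of CHST15 and 51292 bp from the 5′ end of CPXM2. The locus was 421850 bp from the nearest control SMC1 peak and 533521 bp from the nearest ICM peak, and it overlapped CTCF peaks of the ICM and senescent lists. The next, at chr10:91627077-91628498, had a total signal of 10850 and its summit 450 bp from the 3′ end of PPP1R3C, a regulatory subunit of the phosphatase that promotes glycogen synthesis. A locus with a total signal of 10762 lay inside PEG3 and ZIM2 (chr19:56837517-56840050), 1410 bp from the 5′ end of ZIM2. PEG3 is a paternally expressed imprinted gene. This locus overlapped a CTCF peak that was likewise listed in senescence alone, with the 2 summits 1252 bp apart. The nearest control SMC1 peak was 269616 bp away.

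The widest of the 2236 loci lay in PLXNB2, a semaphorin receptor, and spanned 3977 bp with a total signal of 10103 and a highest signal of 7. SESN3, a stress-responsive sestrin, held the locus of highest signal, 26 (97.0th percentile by that measure), 1031 bp inside the gene. MEST, another imprinted gene, held a narrow locus of 533 bp with a highest signal of 22, and its nearest ICM peak was 1353 bp away. CABIN1, which encodes a calcineurin inhibitor, held one of 529 bp with a highest signal of 23. Other loci among the 10 of highest total signal were at MVP (8733), SEPTIN9 (8429), PSKH1 (8339), YPEL2 (7904) and FAM131A (7489). Of those 10, only the locus near CHST15 and CPXM2 and that in PEG3 overlapped a CTCF peak of any list.

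Most senescent-only loci ranked low in their own list, and because the choice of loci rests on peak calling, width and rank are descriptions. Each of the 2236 loci consisted of a single senescent peak, as loci of any single list do, because peaks of the same list did not overlap. The median width was 978.0 bp, with quartiles of 793.0 and 1205 bp, beside 1027 bp for the strongest senescent peak of loci in all 3 lists. The median rank by total signal was the 24.6th percentile (quartiles 11.5 and 42.1), 1850 loci (82.7%) were below the 50th percentile and 8 were above the 90th. Control-only and ICM-only loci ranked much the same in their own lists, with medians at the 20.9th and 22.4th percentile, whereas loci of all 3 lists had a median at the 63.6th. From the lowest to the highest decile of the senescent list, the share of loci that were senescent-only went from 38.5% to 0.620%. The total signal of 1330 of the loci (59.5%) was below 3456, the lowest value admitted to the control list, as was that of 24.5% of the loci shared with another list, while the lowest admitted to the ICM list was 2455. A common scale between lists was not established, so the part of these cut-offs in the choice of loci was not tested.

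**Figure D1:**
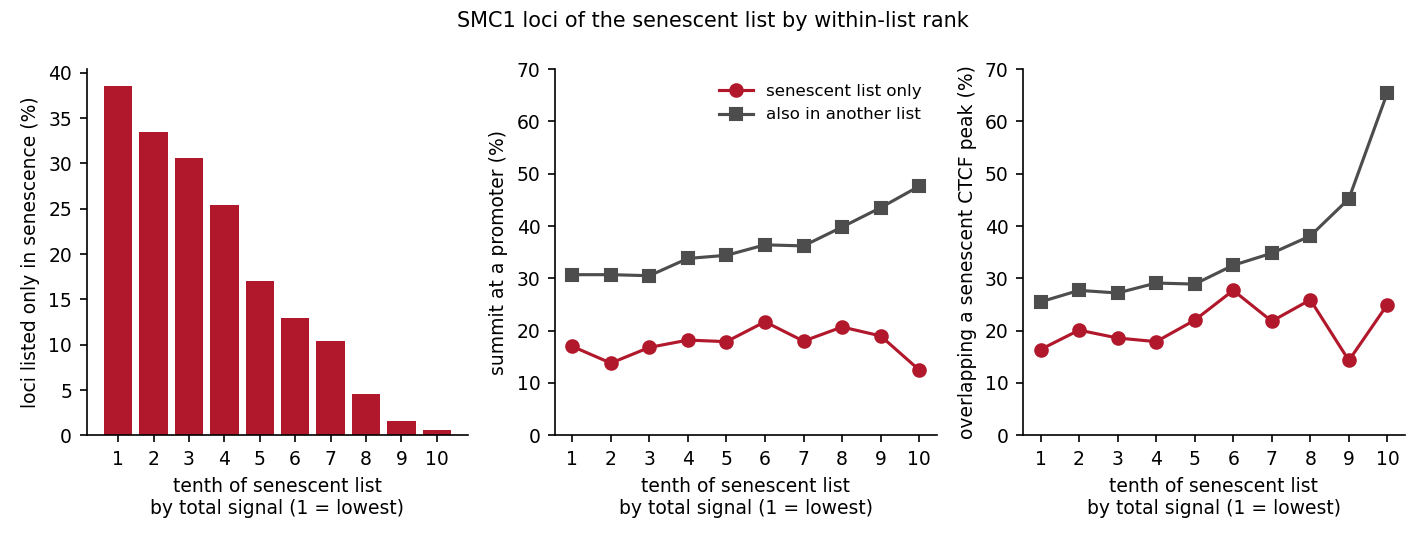
SMC1 loci of the senescent list in 10 equal bins of total signal within that list (1 is lowest): the share of loci listed only in senescence (left), and the share with a summit at a promoter (middle) or overlapping a senescent CTCF peak (right) for senescent-only loci and for loci also in another list. Senescent-only loci make up 38.5% of the lowest bin and 0.620% of the highest, and in every bin their promoter and CTCF shares are the lower of the pair; bins 9 and 10 hold 21 and 8 of them.

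Senescent-only loci were mostly far from the SMC1 peaks of the other conditions. The median gap to the nearest control or ICM peak was 18100 bp, 1392 loci (62.3%) were over 10 kb away, and 348 (15.6%) were over 100 kb away. Control-only loci had a median gap of 20106 bp to the other lists and ICM-only loci one of 22197 bp. At the near end, 172 loci (7.69%) were under 1 kb from a peak of another list. The 3 loci just inside the rule were in TRAM2, 1 bp from a control peak, in MICAL2, 14 bp away, and in the protocadherin gamma cluster, 21 bp away. Just outside it were loci at PHLDA1 and NDUFS7, each with an overlap of 11 bp, and at CSNK1E, with an overlap of 14 bp. Under a narrower rule that joined 100 bp windows centred on summits, 4808 loci were senescent-only.

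Relative to genes, senescent-only loci had a smaller share at promoters than loci the senescent list shared with another list, and larger shares inside genes and between them. A summit within 1 kb of the outermost 5′ end of a gene counted as promoter, then one within 1 kb of a 3′ end, then one inside a gene. Genes without a known strand were not used, so a locus counted as between genes can lie inside such a gene. Of the 2236 loci, 383 were at promoters (17.1%, interval 15.6 to 18.8), against 33.7% of all senescent-list loci. A 3′ end was the position of 112 (5.01%, 4.14 to 6.00), against 3.65%. Gene bodies held 1081 (48.3%, 46.3 to 50.4), against 39.6%, and 660 lay between genes (29.5%, 27.6 to 31.5), against 23.0%. Among the 10575 loci that the senescent list shared with another list, 37.2% were at promoters, 3.37% at 3′ ends, 37.8% in gene bodies and 21.7% between genes. Because promoter was assigned first, a smaller promoter share leaves larger shares for the other positions. Outside promoters, gene bodies held 1081 of 1853 senescent-only loci and 3998 of 6645 shared loci, so the larger share inside genes was not kept. Between genes lay 660 of the former and 2291 of the latter. The promoter share was the lower in each decile of total signal, and among loci below the 50th percentile it was 16.5% against 32.1%. With the starts of the RefSeq promoter windows added, the CDKN2A and PALLD loci counted as promoter and the share was 19.5%. With loci joined by summit windows it was 29.9%, against 37.7% of loci in all 3 lists, and the difference from that class fell from 23.8 to 7.72 percentage points.

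**Figure D2:**
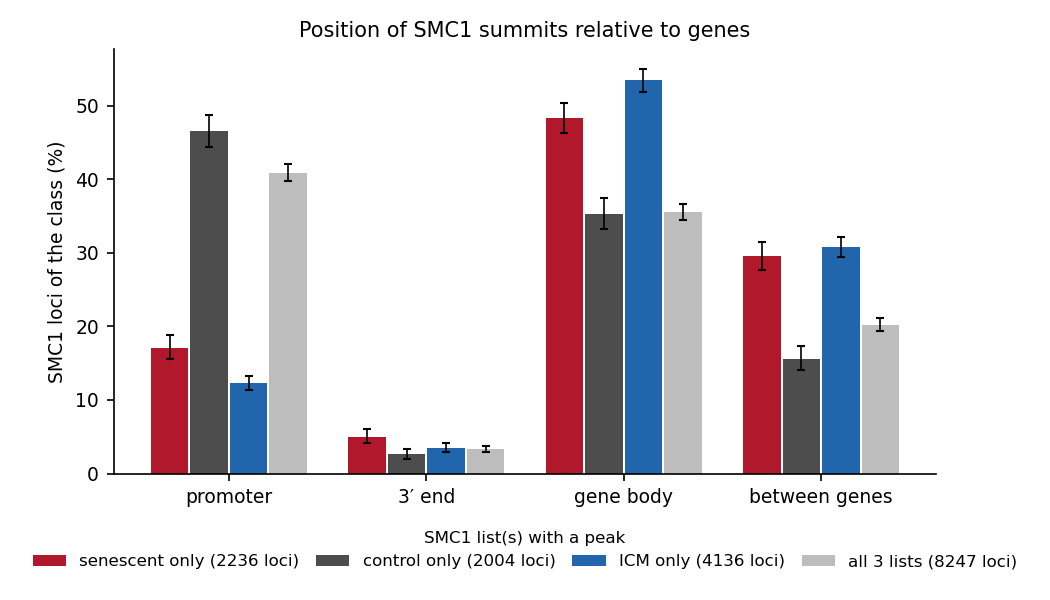
Percent of SMC1 loci of each class with a summit at a promoter, at a 3′ end, in a gene body or between genes; bars are shares and whiskers exact 95% intervals for counting over loci. Senescent-only loci (17.1% at promoters) sit near ICM-only loci (12.3%) and far below control-only loci (46.5%) and loci of all 3 lists (40.9%).

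The other single-list classes differed from each other in position. Control-only loci were at promoters in 46.5% of cases, and ICM-only loci in 12.3%. The senescent-only and ICM-only classes were closer, with 48.3% and 53.4% in gene bodies and 29.5% and 30.8% between genes, although their intervals at promoters did not overlap. At 3′ ends the order was 5.01% for senescent-only, 3.53% for ICM-only, 3.27% for loci of all 3 lists and 2.59% for control-only loci, and the lower bound of the first (4.14%) equalled the upper bound for ICM-only loci. The 3′ share was higher than that of loci in all 3 lists under each of the 9 settings tried, by 0.168 to 2.70 percentage points, the smallest of these with loci joined by summit windows. Every setting assigned promoters first, so the smaller promoter share of senescent-only loci enters each of these differences. Outside promoters, 112 of 1853 senescent-only loci and 270 of 4873 loci of all 3 lists were at a 3′ end.

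At promoters, the senescent-only loci of highest total signal were at MVP, the major vault protein gene (679 bp from the 5′ end), FAM131A (209 bp), NAPRT, an enzyme of NAD synthesis (212 bp), CDC42EP5, an effector of the GTPase CDC42 (112 bp), and LIPA, lysosomal acid lipase (537 bp). Their total signals were 8733, 7489, 6413, 6179 and 6165, and none overlapped a CTCF peak. Measured from coding 5′ ends, 13.4% of senescent-only loci were within 1 kb, which per kb was 7.26 times the density at 5 to 10 kb. For loci shared with another list the share was 32.3% and the ratio 24.1.

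At 3′ ends, the strongest were at PPP1R3C (10850), KRT7-AS, an antisense RNA inside the keratin gene KRT7 (6039), COL1A2 (5795), the long non-coding RNA LINC03073 upstream of TNRC18 (5689) and TUBB, a beta-tubulin gene (5441). COL1A2 encodes a chain of type I collagen, the main fibrillar collagen of fibroblasts. Its locus was 986 bp from the 3′ end and 35793 bp from the nearest SMC1 peak of the ICM list. Around coding 3′ ends, with promoter loci left out, 4.16% of senescent-only loci were within 1 kb and their density there was 2.23 times that at 5 to 10 kb, beside 3.58% and 1.87 times for loci shared with another list. In the first 5 kb beyond the 3′ end lay 8.90% of senescent-only and 8.37% of shared loci.

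**Figure D3:**
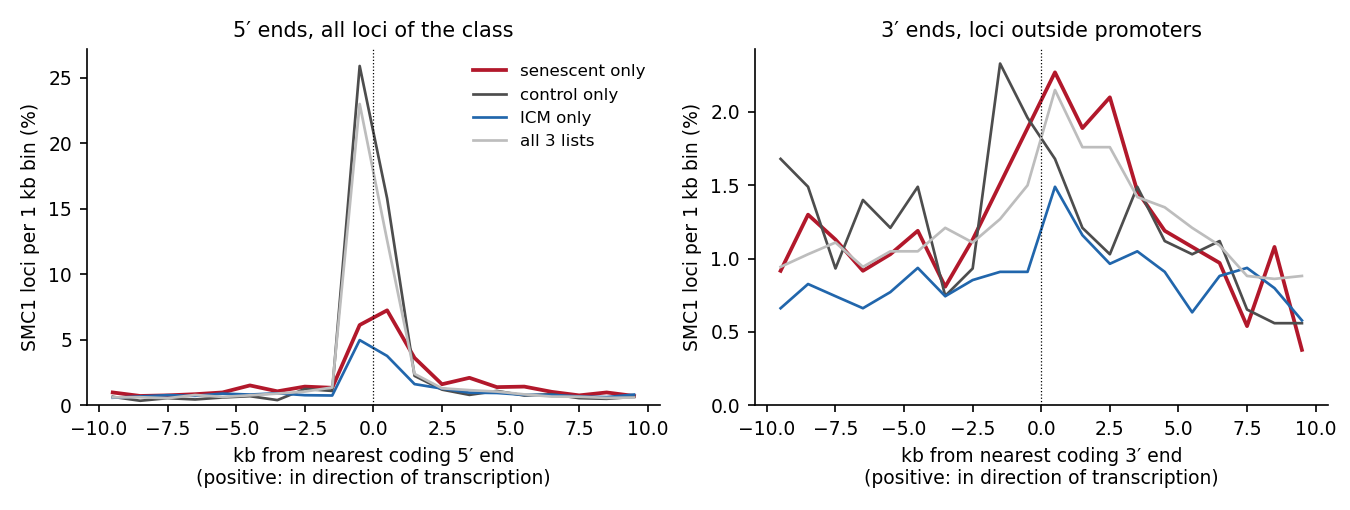
Percent of SMC1 loci per 1 kb bin against distance in kb from the nearest coding 5′ end (left, all loci of the class) and from the nearest coding 3′ end (right, loci outside promoters), with positive distances in the direction of transcription. Within 1 kb of a 5′ end lie 13.4% of senescent-only loci and 35.7% of loci in all 3 lists; the 3′ panel has a far smaller scale, and its lines rest on few loci per bin (77 senescent-only loci within 1 kb).

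Inside protein-coding genes lay 1191 senescent-only loci (53.3%), and when each gene was divided into 5 equal parts, 33.4% of these were in the part at the 5′ end and 19.2% in that at the 3′ end. For loci shared with another list the same parts held 41.6% and 16.7%. Outside coding genes, 200 of 1039 senescent-only loci lay between convergent genes, whose 3′ ends face each other (19.2%, 16.9 to 21.8), against 13.8% (12.8 to 14.7) of shared loci. The share was 19.7% in the ICM-only class and 9.82% in the control-only class. Promoter loci were kept in these counts. Between divergent genes, whose 5′ ends face each other, lay 28.9% of senescent-only and 34.8% of shared loci. How far the convergent share follows from the promoter share was not tested. Among the loci of highest total signal between genes, one lay 4392 bp before the 5′ end of SP100, a nuclear body protein gene, with a total signal of 6315 and the nearest ICM peak 204569 bp away. Another lay 71411 bp before TP53I11, with 7150, inside LOC105376650, a long non-coding RNA gene not used for the positions.

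A smaller share of senescent-only loci than of other loci in the senescent SMC1 list overlapped CTCF. Overlap was counted over the whole joined locus. Its median width was 978.0 bp for senescent-only loci, 1213 bp for loci shared with another list and 1254 bp for loci of all 3 lists. For control-only and ICM-only loci it was 864.0 and 639.0 bp. How far width enters these shares was not tested. A CTCF peak of the control list overlapped 178 of the 2236 (7.96%, 6.87 to 9.16; 25.9% of all senescent-list loci), one of the ICM list 304 (13.6%, 12.2 to 15.1; 35.1%) and one of the senescent list 440 (19.7%, 18.0 to 21.4; 33.9%). For loci of all 3 SMC1 lists the shares were 33.7%, 44.4% and 39.6%. The other single-list classes were low as well, with 12.2%, 15.9% and 15.6% of control-only loci and 5.61%, 11.4% and 14.8% of ICM-only loci. A CTCF peak of any list overlapped 509 senescent-only loci (22.8%), 421 of the 2004 control-only loci and 17.9% of ICM-only loci. The CTCF lists differ in length, with 4673, 6728 and 8577 peaks, and when each was limited to its 4673 peaks of highest total signal the senescent-only shares were 7.96%, 9.30% and 11.0%. With loci joined by summit windows the ICM share (27.2%) passed the senescent share (26.4%), so the order of these 2 lists was not kept under that rule. In each decile of total signal, senescent-only loci had the lower share with a senescent CTCF peak, and below the 50th percentile it was 18.6% against 27.8%.

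**Figure D4:**
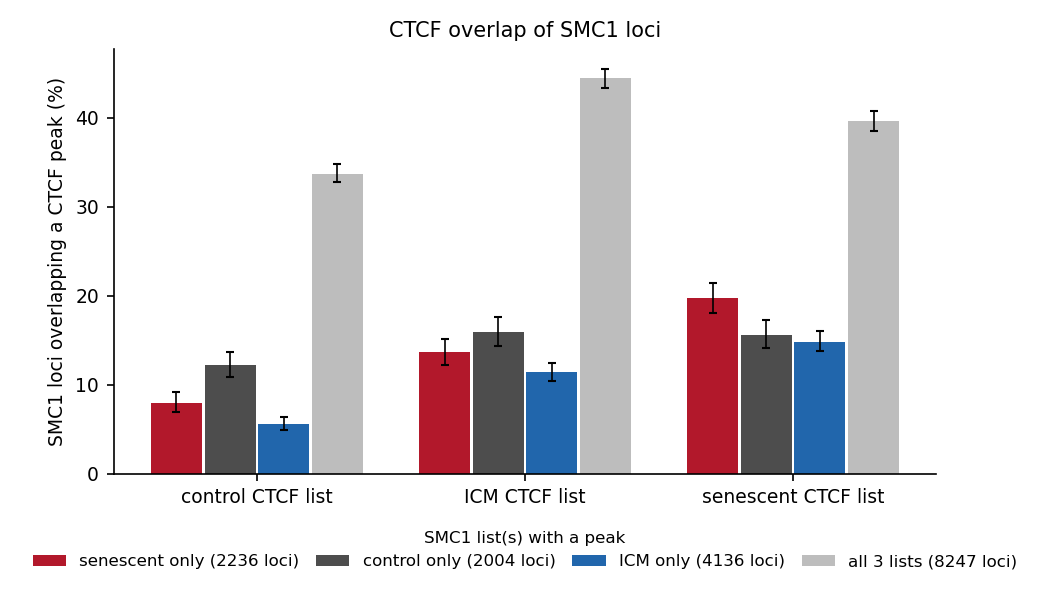
Percent of SMC1 loci of each class overlapping a CTCF peak of the control, ICM or senescent list by 1 bp or more; whiskers are exact 95% intervals for counting over loci. Senescent-only loci have shares of 7.96%, 13.6% and 19.7% in the 3 CTCF lists, which also differ in length, and are below loci of all 3 SMC1 lists in each.

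Where the senescent CTCF peak was present it was close, with a median of 64.5 bp between the summits and 65.0% within 100 bp. The same values at loci of all 3 SMC1 lists were 55.0 bp and 68.1%. These CTCF peaks had a median rank at percentile 51.2 of the senescent CTCF list, against 70.7 at loci of all 3 SMC1 lists. By position, a senescent CTCF peak overlapped 31.2% of senescent-only loci at 3′ ends, 25.6% between genes, 17.4% in gene bodies and 12.5% at promoters. Loci shared with another list had the higher share at each position, at 55.6%, 41.4%, 35.1% and 34.5%.

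At 187 senescent-only SMC1 loci (8.36%, 7.25 to 9.59) the CTCF peak was itself listed in senescence alone, against 5.18% of all senescent-list loci. These were 36.7% (32.5 to 41.1) of the senescent-only loci with any CTCF peak, against 12.5% of all senescent-list loci with one. That share was 251 of 739 (30.6 to 37.5%) among ICM-only loci and 28.4% among loci of the ICM and senescent lists. It was 16.2% among control-only loci and 7.57% among loci of all 3 lists. The locus in PEG3 and ZIM2 heads these by total signal, with SMC1 and CTCF summits 1252 bp apart. Next came IQSEC3, which encodes an exchange factor for ARF GTPases (5929, with SMC1 and CTCF summits 17 bp apart), a locus in a long non-coding RNA on chromosome 7 (chr7:131859116-131859925; 5891, 4 bp apart), the promoter of KIAA1671 (5739, 155 bp apart) and DOC2B, a calcium sensor of exocytosis (5681, 65 bp apart). Each of these 5 was at least 166611 bp from any control or ICM SMC1 peak.

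Peaks of all 3 CTCF lists overlapped 141 senescent-only loci (6.31%), against 26.3% of loci shared with another list. The strongest of them lay in MIR34AHG, the host transcript of the microRNA miR-34a, which acts downstream of p53 (total signal 6788). The others of highest total signal were at the promoter of PDGFRL (5909), near PTPN20 (5413), in ARHGAP22, a GTPase-activating protein for RAC (5350), and in PLEC, which encodes the cytolinker plectin (5276). In ARHGAP22 the CTCF summits were within 57 bp of the SMC1 summit in all 3 lists, and near PTPN20 within 126 bp. They were 939 to 1007 bp away in MIR34AHG, 266 to 950 bp at PDGFRL and 255 to 1823 bp in PLEC.

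Senescent-only loci were counted in 7 lists of genes. Of the 19974 protein-coding genes, 1372 (6.87%) had a senescent-only locus over them or within 1 kb, and these were long, with a median of 52.2 kb against 23.1 kb for the rest. Median length was 24.2 kb over all coding genes, 35.4 kb for actin, 8.66 kb for secretory and 66.5 kb for matrix genes. For cell cycle, cohesin, AP-1 and HMG lists it was 18.1, 76.7, 7.18 and 28.8 kb. No share was adjusted for length. Actin and mechanosensing genes had one at 12 of 38 (31.6%), secretory genes at 9 of 35 (25.7%), matrix genes at 6 of 38 (15.8%), cell cycle and arrest genes at 4 of 40 and CTCF and cohesin genes at 1 of 15 (6.67%). The gene of the last list was PDS5B, a regulator of cohesin. AP-1 and immediate early genes had none of 20 (exact interval up to 16.8%), and HMG, lamin and heterochromatin genes had none of 17 (up to 19.5%). Many genes of these lists had some senescent SMC1 locus (92.1% of the actin list, 18 of the 20 AP-1 genes, 48.6% of the secretory list and 36.1% of all coding genes). Of genes with any senescent locus, a senescent-only one was present at 52.9% in the secretory list, 34.3% in the actin list, 24.0% in the matrix list, 22.2% in the cell cycle list, 14.3% in the CTCF and cohesin list, none in the AP-1 and HMG lists and 19.0% overall. ICM-only loci were at 12 actin, 3 secretory and 11 matrix genes, and control-only loci at 6, 5 and 12. Over all coding genes the shares were 10.1% for ICM-only and 8.38% for control-only loci.

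Among secretory genes, CCL2, a monocyte-attracting chemokine, had its single senescent SMC1 locus 505 bp before its 5′ end, 53474 bp from the nearest control peak, with a total signal of 3088 (15.6th percentile). LIF, a cytokine of the interleukin-6 family, likewise had 1 senescent locus, 620 bp inside the gene (3062). IGFBP5, which binds insulin-like growth factors, held 2 wide loci of 2344 and 2060 bp, with total signals of 6047 and 5027 and highest signals of 7 and 6. The related IGFBP3 held 1 (2933). PLAU, the urokinase protease, had its locus 213 bp from its 3′ end (4495), and CCN1, a matricellular protein, 369 bp from its 3′ end (4602). MMP14, TIMP2 and INHBA, which encode a membrane metalloproteinase, a metalloproteinase inhibitor and the activin A subunit, held 1 each inside the gene, with total signals of 3353, 2829 and 3145.

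In the matrix list, loci were at COL1A2, COL4A2, a basement-membrane collagen (2825), LOXL1, an elastin cross-linking enzyme (3470), FBLN1, fibulin-1 (2957), TGFBI (3744) and EFEMP2, an elastic-fibre protein with 2 loci (4583 and 3300). The EFEMP2 loci were 707 bp before and 519 bp after the 5′ end. A CTCF peak of the ICM list overlapped both, and none of the senescent list did.

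In the actin list, ACTB, cytoplasmic beta-actin, had 2 loci with total signals of 3493 and 3168, one of them 93 bp before the 5′ end. Both overlapped the same CTCF peak of the control list and the same one of the ICM list, and none of the senescent list. The summits of these CTCF peaks were 869 to 1644 bp from the SMC1 summits. ACTG1, gamma-actin, and TAGLN2, transgelin-2, had theirs 689 and 400 bp from the 3′ end (3388 and 3036). MYH9, the heavy chain of non-muscle myosin, held 4. ACTN1 (2919), PXN (3084), LIMA1 (2824) and PALLD (3120), which encode focal adhesion or actin-bundling proteins, held 1 each. TEAD1 and MRTFA, transcriptional effectors of the Hippo and actin pathways, held narrow loci with a highest signal of 13 (total signals 3988 and 4159). A locus within 1 kb of TPM2, tropomyosin, was 307 bp from the 3′ end of the neighbouring CA9 (5069).

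Cell cycle genes with a locus were CDKN2A, CCND1, cyclin D1 (3136), CCND3, cyclin D3 (2 loci, 3396 and 2955), and MDM2, the ubiquitin ligase of p53. The MDM2 locus was 304 bp inside the gene, had a total signal of 4672 and was 60403 bp from the nearest control peak. It overlapped CTCF peaks of the ICM and senescent lists.

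The 38 loci at genes of these lists had highest signals from 5 to 14. By total signal, 27 (71.1%) were below the 50th percentile, against 82.7% of all senescent-only loci. A 3′ end was the position of 6 (15.8%, 6.02 to 31.3), 7 were at promoters, 25 in gene bodies and none between genes, since each had to be over a gene or within 1 kb of it. Over all 2236 senescent-only loci, 112 were at a 3′ end (5.01%). Those include 660 loci between genes, so these 3′ shares are not like for like. The 6 at 3′ ends were those of PLAU, CCN1, COL1A2, ACTG1, TAGLN2 and CA9. A CTCF peak of any list overlapped 11 of the 38, and 22.8% of all senescent-only loci.

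Several senescent-only loci could lie in a single gene. ZMIZ1, a transcriptional coregulator, and CDH4, the R-cadherin gene, held 5 each, and MYH9, PLXNA2, TNS3 and GSE1 4 each. AHDC1, ADAM19, CABIN1 and ARHGAP22 were among the genes with 3. In ZMIZ1 the 5 loci lay among 10 loci of all 3 lists, with total signals between 2845 and 3486. In CDH4, a gene of 688 kb, the senescent list held no locus besides these 5, and the only other SMC1 locus was a control-only one. Their total signals ran from 2852 to 5007, and 1 overlapped a CTCF peak, listed in senescence alone. The MYH9 loci lay between 16924 and 52712 bp from the 5′ end, with total signals of 3240, 4381, 3737 and 4854, and 6 loci of all 3 lists lay in the same gene. PLXNA2, a semaphorin receptor, had 1 of its 4 at its 3′ end (371 bp) and 1 before its 5′ end (998 bp).

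**Figure D5:**
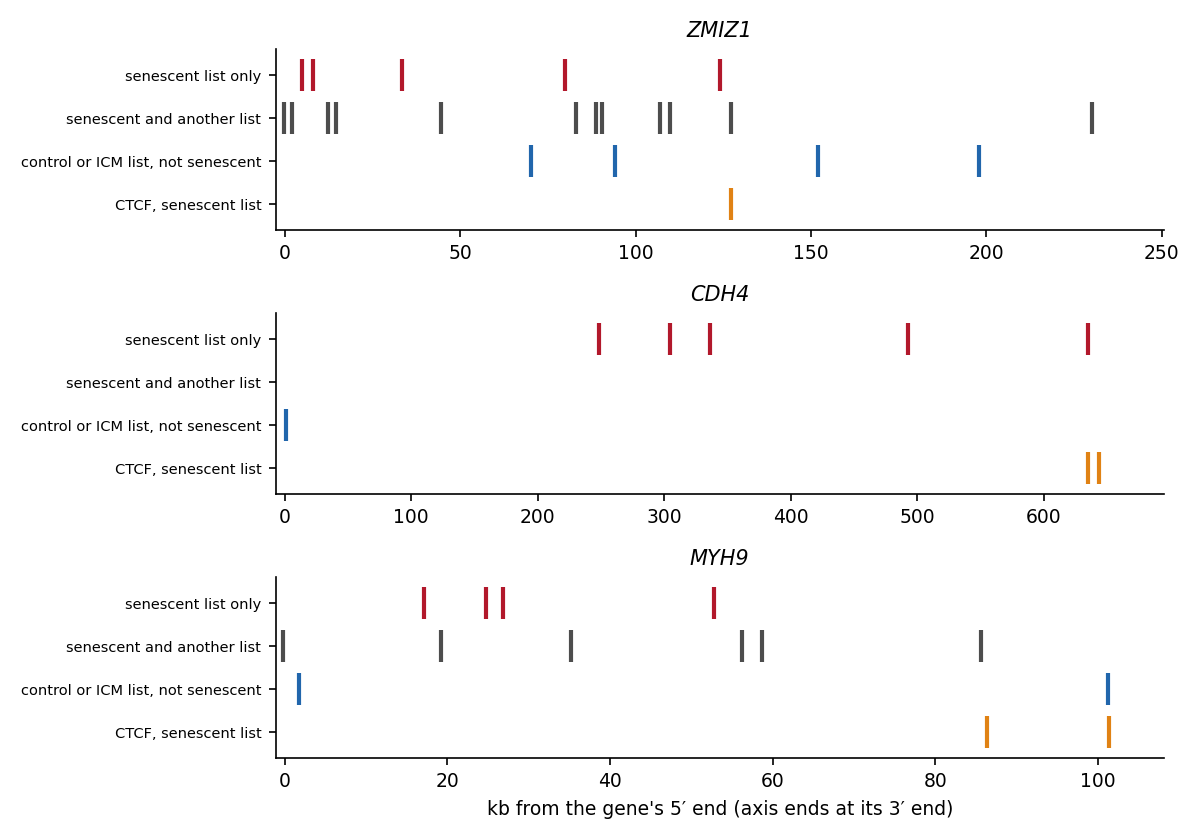
SMC1 loci along ZMIZ1, CDH4 and MYH9, by distance in kb from the 5′ end, in lanes for loci listed only in senescence, in senescence and another list, and in control or ICM lists without senescence, with senescent CTCF peaks below. ZMIZ1 and MYH9 hold 5 and 4 senescent-only loci among 10 and 6 loci of all 3 lists, whereas the 5 in CDH4 are the senescent list's only loci in that gene.

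Along chromosomes, 507 senescent-only loci (22.7%) had another within 50 kb, and the median gap to the next was 174424 bp. Within their own classes these values were 19.4% and 232339 bp for control-only and 33.1% and 104088 bp for ICM-only loci. Joined at 50 kb, 1729 loci stood alone and the largest groups had 5 loci, one in ZMIZ1 and one across FBXL18 and ACTB on chromosome 7, which spanned 102162 bp. Groups of 4 were in CAPZB, which encodes an actin-capping protein subunit, AHDC1, CHST3 and MYH9, near RBP3 and ZNF488, and around DCAF11, and these groups were singled out after their values were seen. The share of the senescent list's loci that were senescent-only ran from 13.7% on chromosome 3 to 21.3% on chromosome 7. Since loci in 1 gene or group come from the same library, they are not replicates of one another.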

How the data were processed

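CUT&Tag for CTCF and SMC1 was done in 1 library each of control, ICM-treated and senescent IMR90 cells (6 in all). Libraries with p number 34 were assigned to senescence from the series design, since their titles give no condition. Per the study's methods and the submitters' processing notes, the authors aligned read pairs to GRCh38 with Bowtie2 2.3.4.1, calibrated them by E. coli reads and called peaks in each library with SEACR 1.3, which per the labels ran in stringent mode on the top 1%. Picard 2.20.7 and deepTools are named without a role. The deposited CTCF lists held 4674 (control), 6729 (ICM) and 8578 (senescent) peaks, counting the mitochondrial one. Each count is larger than the paper reports after its motif filter. The lists were thus not limited to that filtered set, and CTCF overlaps can include peaks without a motif. Each deposited list holds 2 signal values per peak as whole numbers: the summed coverage (total signal) and the highest coverage, with the region where it was reached. They give no counts or read depth, and signals were ranked within a list only. A single mitochondrial peak per list was left out.

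Loci, positions and overlaps were computed with Python 3.11.15, numpy 2.4.6, pandas 2.3.3 and scipy 1.17.1, tested on simulated data. Genes were RefSeq GRCh38.p14 (59098, of which 47057 (79.6%) had a strand). Strand came from the RefSeq promoter table, or from GENCODE by symbol. Intervals are Clopper-Pearson at 95% and cover counting error only.

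Loci named are the 10 of highest total signal, the 5 of highest signal and the 5 widest, the top 5 by total signal per position, the top 5 with a senescent-only CTCF peak and with CTCF peaks of 3 lists, 3 on each side of the overlap rule, those at the 10 genes with most loci, and those at list genes. The members and lists were chosen with earlier results of these data known. Alternatives changed the joining rule, list length, window, genes, overlap and ranking measure.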

Additional observations from a re-analysis of the deposited data

How the results depend on the processing

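No paired analysis was possible because each group has 1 library and no result comes from a test. Of 58 alternative values for 10 results, 17 stayed within the interval of the reported value (for the number of loci, within 1.5 times it) and 41 did not. Against loci of all 3 SMC1 lists, the senescent-only promoter share was lower under all 9 settings (by 7.72 to 25.5 points) and the CTCF shares under all 6 settings for each list. Joined by 100 bp summit windows, there were 4808 senescent-only loci, of which 29.9% were at promoters, 3.83% at 3′ ends, 42.6% in gene bodies and 23.6% between genes, 19.1%, 27.2% and 26.4% had a control, ICM or senescent CTCF peak, the median rank was 37.1 and the median width 1047 bp. With SMC1 lists of equal length there were 3471 loci by highest signal, and the median width was 961.0 bp by total signal. Of the 6463 senescent peaks of highest total signal, 386 were senescent-only, with 19.9% at promoters, 45.6% in gene bodies and CTCF shares of 11.1%, 17.9% and 24.6%. Promoter, 3′ end, body and intergenic shares were 12.1%, 2.55%, 53.8% and 31.6% with a 500 bp window, 26.3%, 8.50%, 39.4% and 25.8% with 2.5 kb, and 13.4%, 3.49%, 43.8% and 39.4% with protein-coding genes. Placing whole loci gave 21.3%, 7.11% and 43.4% for the first 3, and added promoter-table starts, an alternative chosen after seeing the data, gave 19.5% at promoters and 46.0% in bodies. With CTCF summits within 500 bp the control and ICM shares were 6.22% and 10.5%, and with CTCF lists of equal length the ICM and senescent shares were 9.30% and 11.0%. The median rank was 30.2 by highest signal and 26.9 by mean signal per bp. Position shares move with the window by construction, and the cause of the other shifts was not tested. The lists give neither depth nor signal outside peaks, which limits every statement on a locus missing from a list.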
